A study of Danio rerio with 6 samples.

Results

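The claudin genes are taken here as the rows of the count table whose gene name begins with cldn, 37 of 35197 rows, in RNA of whole zebrafish embryos at 48 hours post-fertilization. The 3 control libraries are labelled wildtype, and their columns in the table are named casper, a pigment-deficient strain. The 3 libraries compared with them come from embryos homozygous for a dnajc21 mutation. The labels give neither the lesion nor the background of the mutants, and no library received a treatment. Each library was made from poly-A RNA of a pool of 30 to 50 embryos. Whether pools of a group stem from different clutches is not stated, so a p-value here reflects only how far these libraries scatter, and part of that scatter may be technical. The protein Dnajc21 is a co-chaperone with a J domain that acts in large ribosomal subunit assembly.

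Claudins are small tetraspan membrane proteins that form the strands of tight junctions. Some seal the gap between neighbouring epithelial or endothelial cells and others form pores that let selected ions or water pass, so the set of claudins a tissue makes shapes what leaks across it. Fish carry a large family, with numbered members named after mammalian claudins and lettered members (cldna to cldnk) that are spread over skin, lateral line, ear, gut, kidney, vessels and glia.

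All 37 rows held counts, and 30 passed the filter on low counts and were tested. Total counts per library ran from 8600951 to 11798543. The dnajc21 transcript itself stood at 22.6, 24.9 and 30.9 CPM (counts per 1000000 of the TMM-scaled library size) in wildtype replicates 1 to 3 and at 16.9, 19.7 and 17.3 CPM in mutant replicates 1 to 3. It was lower in every mutant library (log2 fold change -0.55, SE 0.12, Benjamini-Hochberg adjusted p = 0.00492 in the quasi-likelihood test of edgeR).

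Few claudins dominated the claudin reads. Claudin rows together took 0.0714% to 0.0755% of all counts in each library. The 5 rows with the most reads in wildtype, cldni, cldne, cldn7b, cldnb and cldnh, held 61.4% ± 0.921 of claudin counts in wildtype and 60.7% ± 0.481 in mutants (SD, n = 3 each), and the first 10 held 81.7% ± 0.418 and 82.9% ± 0.286. The same 10 rows led in mutants. These are shares of reads, which grow with transcript length. No transcript lengths were at hand, so the order is one of reads and does not rank the number of molecules.

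The row with the most reads was cldni, a lettered claudin without a one-to-one mammalian name. It had 213, 210 and 207 CPM in wildtype replicates 1 to 3 and 219, 212 and 229 CPM in mutant replicates 1 to 3. That is 28.5% ± 1.04 of claudin counts in wildtype and 30.2% in mutants, and its groups overlapped. Its log2 fold change was 0.067 (95% interval -0.064 to 0.199, edgeR adjusted p = 0.550), so a change of the size found for cldne lay outside the interval.

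The cldni row shared reads with coro1a, for an actin-binding protein of leukocytes, which is the next gene to it in the RefSeq gene table of assembly GRCz12tu. The expected counts of both rows are not whole, but their sum is whole in each of the 6 libraries (tolerance 0.011). The coro1a row held 11.3 ± 0.519 CPM in wildtype and 11.9 ± 0.469 CPM in mutants. Added together, both rows stood at 225, 221 and 218 CPM in wildtype and at 231, 224 and 240.3 CPM in mutants (log2 fold change 0.068, adjusted p = 0.542). The split between the neighbours therefore moved the cldni level little.

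The other leading rows were cldn7b and cldnb. The epithelial cldn7b stood at 52.1, 58.1 and 61.2 CPM in wildtype and at 57.3, 56.1 and 61.3 CPM in mutants (log2 fold change 0.026, 95% interval -0.139 to 0.191). The cldnb row, for a claudin of the lateral line and other embryonic epithelia, stood at 52.3, 56.7 and 53.4 CPM in wildtype and at 50.2, 49.0 and 53.6 CPM in mutants (log2 fold change -0.089, 95% interval -0.245 to 0.068). Both rows overlapped between the genotypes, and the wildtype ranges of cldn7b and cldnb overlapped each other.

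Next by reads came cldnh, named cldn3c in RefSeq, at 49.5, 47.2 and 44.1 CPM in wildtype and 48.6, 47.8 and 47.2 CPM in mutants (log2 fold change 0.031, 95% interval -0.127 to 0.189). The cldn12 row had 32.6, 40.6 and 41.2 CPM in wildtype and 34.4, 40.1 and 38.0 CPM in mutants (log2 fold change -0.033, 95% interval -0.230 to 0.165). The cldn1 row, for the claudin whose loss opens the skin barrier in mice, had 23.4, 21.8 and 22.4 CPM in wildtype and 25.4, 19.3 and 26.0 CPM in mutants (log2 fold change 0.072, 95% interval -0.160 to 0.305). None of the 3 passed the test, and the groups overlapped in each. The sign of the small cldn12, cldn7b and cldnh fold changes turned when some single libraries were left out.

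**Figure D1:**
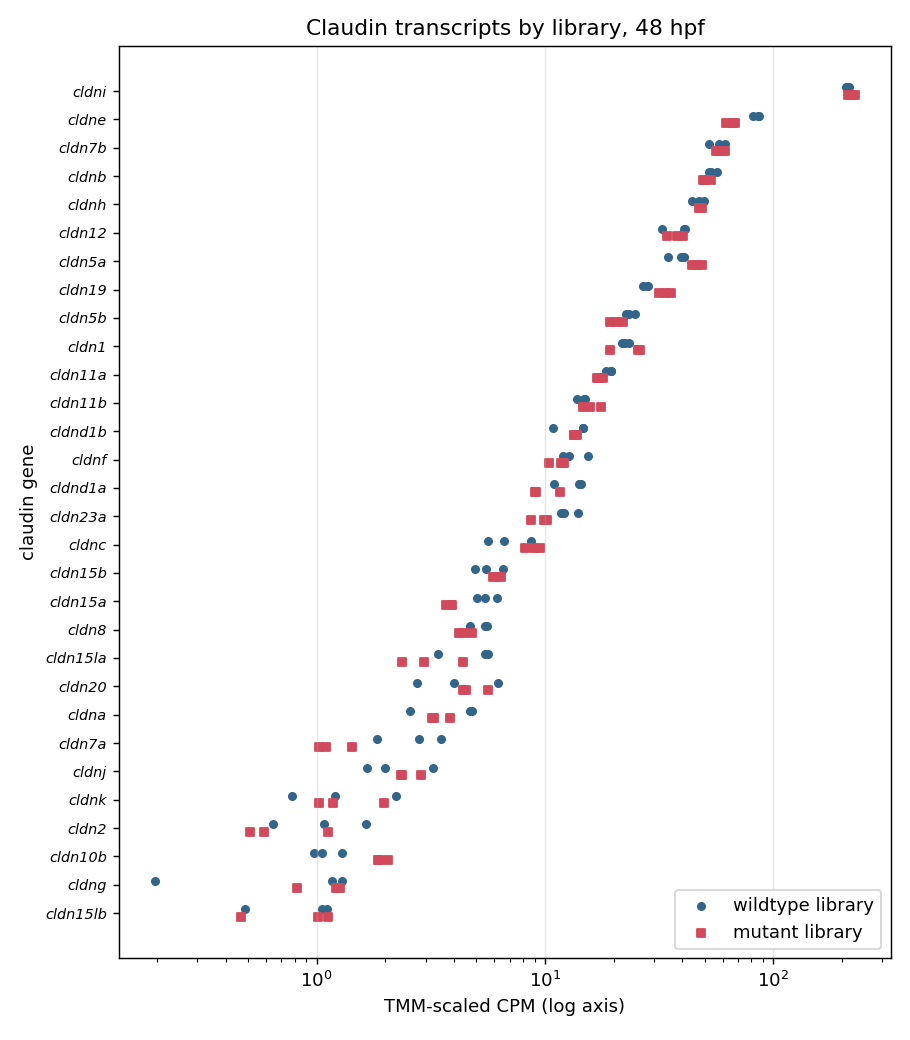
TMM-scaled CPM on a log axis for the 30 tested claudins, ordered by mean level in wildtype. Circles are the 3 wildtype libraries and squares the 3 mutant libraries of each gene, and cldni, at 207 to 229 CPM, lies above all others while the next 4 rows have wildtype means of 46.9 to 84.4 CPM.

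Between mutants and wildtype, 4 claudins passed the test. The mutants had less cldne and cldn7a, and more cldn5a and cldn19. That is 2 higher and 2 lower of 30 tested, or 13.3%, against 11.7% of all 20229 genes tested, so the share was near the background; 5.85% of all genes were called higher and 5.87% lower. DESeq2 called 1 claudin, cldne, against 7.46% of all genes. Claudin calls numbered 1 without wildtype replicate 1 or any 1 mutant library and 3 without wildtype replicate 2 or 3. The groups did not overlap in 9 claudins, 30% of those tested, against 30.5% of all genes. The median log2 fold change of tested claudins was -0.0075 and that of all tested genes -0.0057. Their median absolute log2 fold change was 0.22, against 0.17 over all genes. The fold changes were positive in 15 and negative in 15, and 25 lay within 0.5 of zero.

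The largest claudin difference in reads was in cldne, a claudin of the enveloping layer and epidermis of the fish embryo. It stood at 81.2, 85.4 and 86.7 CPM in wildtype replicates 1 to 3 and at 62.0, 67.7 and 66.5 CPM in mutant replicates 1 to 3. Every mutant library lay below every wildtype library. The log2 fold change was -0.37 (SE 0.07, 95% interval -0.516 to -0.223, edgeR adjusted p = 0.00183), and its share of claudin counts went from 11.4% to 8.98%. It was the one claudin whose call held without any 1 library (adjusted p of 0.0011 to 0.0251) and with DESeq2 and limma-voom. In bulk RNA of whole embryos, fewer cells of a type and less RNA per cell cannot be told apart.

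In RefSeq gene order, cldne stands in 1 run with cldnj, cldnf and cldna, where another gene may lie between neighbouring claudins. Of these, cldnf had 11.9, 15.5 and 12.8 CPM in wildtype and 10.4, 12.1 and 11.8 CPM in mutants (log2 fold change -0.24, SE 0.13, adjusted p = 0.273). For cldna the log2 fold change was -0.24 (SE 0.24, adjusted p = 0.580), and for cldnj, which is needed for otolith formation in the zebrafish ear, 0.13 (SE 0.30, adjusted p = 0.831). The groups overlapped in all 3, and their fold changes were not tested against that of cldne.

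Markers of the epidermis, where cldne is known to be made, moved in both directions. Of 13 markers, all tested, 2 were higher and 2 lower in mutants, or 30.8% against 11.7% of all genes called. The list was picked with earlier results of these data known, so that share is a description and no test. The basal cell regulator tp63 and the E-cadherin gene cdh1 rose (log2 fold changes 0.26 and 0.32, edgeR adjusted p = 0.028 and 0.0319), and the keratin gene krt17 and the envoplakin gene evpla fell (-0.41 and -0.42, adjusted p = 0.00703 and 0.0112). The median log2 fold change of the list was 0.11. The summed level of the list ran from 21799.6 to 22908 CPM in wildtype and from 23226 to 24390.3 CPM in mutants, and 0 markers were at 0 in all libraries. Most of that sum lay in krt4 and cyt1, so it says little of the other markers. Neither passed with edgeR: krt4 had means of 12169 and 13399 CPM (adjusted p = 0.0595, with overlap), and cyt1 5262 and 5734 CPM (adjusted p = 0.0724). The cdh1 call was lost on leaving out any 1 library except wildtype replicate 1 (0.0648 to 0.168) and that of tp63 on leaving out any except wildtype replicates 1 and 2 (0.0647 to 0.0942). The tp63 call was also lost with DESeq2 (0.0876), and the cdh1 call with limma-voom (0.0517) and without robust weights (0.0607). The evpla call was lost without wildtype replicate 3 (0.0564), mutant replicate 1 (0.0688) or 2 (0.0622), and the krt17 call without mutant replicate 1 (0.057). Their part in the cldne difference was not tested.

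Claudin-5 is the main claudin of vessel walls, and in zebrafish cldn5a is also made by the neural tube lining, where it is needed for the brain ventricles to open. The cldn5a row stood at 34.4, 40.5 and 39.3 CPM in wildtype and at 48.9, 43.9 and 46.4 CPM in mutants. All mutant libraries lay above all wildtype libraries (log2 fold change 0.28, SE 0.08; adjusted p = 0.0316 by edgeR). The call was lost on leaving out wildtype replicate 1 (0.0666) or any of mutant replicates 1 (0.142), 2 (0.0571) and 3 (0.0972), and with DESeq2 (0.0952) and limma-voom (0.0519). Its direction was the same in every one of these fits.

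The other claudin-5 gene, cldn5b, had 23.4, 24.8 and 22.7 CPM in wildtype and 19.2, 21.9 and 20.5 CPM in mutants. The groups did not overlap, with the mutants below, but the row did not pass (log2 fold change -0.20, SE 0.10, edgeR adjusted p = 0.194). Of 11 endothelial markers, all tested, 0 were called by edgeR, by DESeq2 or by limma-voom. Of all genes, edgeR called 11.7% and DESeq2 7.46%. With edgeR 2 markers had an unadjusted p under 0.05, against 25.5% of all genes. Both, cdh5 and pecam1, were higher in mutants (log2 fold changes 0.21 and 0.31). The median log2 fold change of the 11 markers was 0.14. Their summed level ran from 186 to 189 CPM in wildtype and from 199.8 to 206 CPM in mutants, with 0 markers at 0. Their part in either claudin-5 value was not tested.

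**Figure D2:**
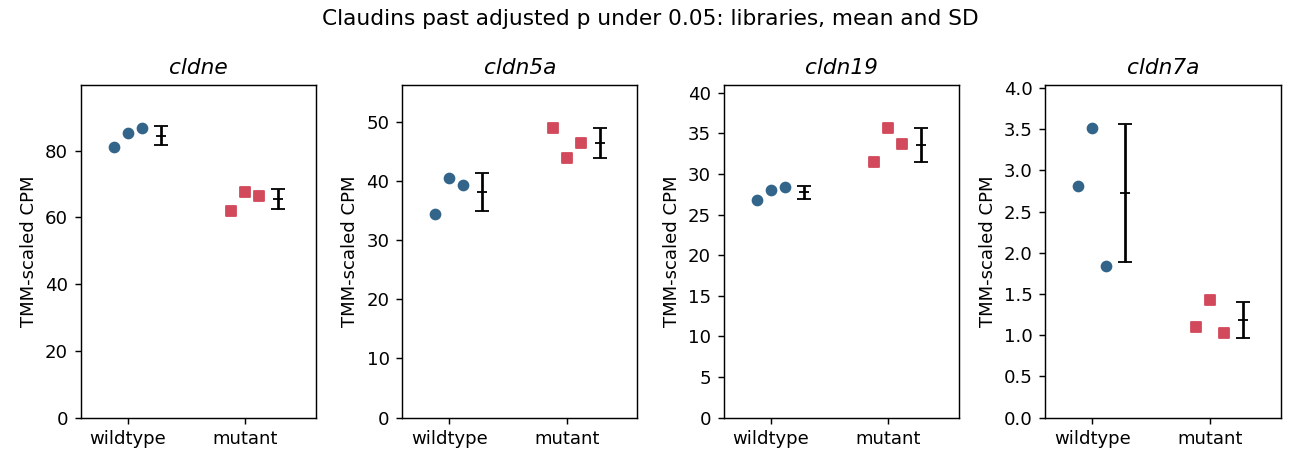
TMM-scaled CPM of the 4 claudins that passed the test, on axes that start at 0. Points are replicates 1 to 3 from left to right in wildtype (circles) and mutants (squares), and the bar beside them gives the mean and SD; the groups do not overlap in any of the 4, and cldn7a lies below 4 CPM throughout.

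The cldn19 row, for a claudin known in mammals from the kidney tubule, the retinal pigment epithelium and Schwann cells, had 26.8, 28.1 and 28.4 CPM in wildtype and 31.4, 35.6 and 33.8 CPM in mutants. The mutants lay above the wildtype in all libraries (log2 fold change 0.27, SE 0.08, edgeR adjusted p = 0.0437). This call ended when any 1 library was left out (adjusted p of 0.0573 to 0.197), with DESeq2 (0.172) and with limma-voom (0.0606).

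Kidney and retina markers moved in both directions, with 27.3% and 42.9% of the tested markers called against 11.7% of all genes. Both lists were picked with earlier results of these data known, so these shares are descriptions and no test. Among 11 tested of 13 pronephros markers, the cotransporter genes slc12a3 (log2 fold change 0.79, edgeR adjusted p = 0.00114) and slc20a1a (0.61, adjusted p = 0.00512) rose and the regulator pax2a fell (-0.30, adjusted p = 0.0174). The summed level of the list ran from 227 to 252 CPM in wildtype and from 259 to 271 CPM in mutants, with 0 markers at 0. Among 7 tested of 10 retina markers, the photoreceptor regulators crx (-1.26, adjusted p = 2.39e-06) and otx5 (-0.93, adjusted p = 0.027) fell and the retinal homeobox gene rx1 (0.63, adjusted p = 0.00195) rose. The pigment epithelium genes rpe65a (-0.091, edgeR adjusted p = 0.833) and pmela (0.0079, adjusted p = 0.971) did not pass. Nor did gnat1 (0.058, adjusted p = 0.947) and gnat2 (-0.17, adjusted p = 0.852), and the median of the retina list was -0.091. The retina list summed to 132 to 162 CPM in wildtype and 105 to 125 CPM in mutants, also with 0 markers at 0. Leaving out wildtype replicate 2 (0.058) or mutant replicate 1 (0.0749) or 3 (0.105) ended the pax2a call, and the otx5 call was lost without wildtype replicates 1 (0.0782) or 2 (0.0631) or mutant replicates 2 (0.0968) or 3 (0.0746). The pax2a call was also lost with DESeq2 (0.0778), and the otx5 call without a low-count filter (0.0753). The part of these markers in the cldn19 value was not tested.

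The cldn7a row, for an epithelial claudin, had few reads. It held 24, 36 and 20 counts in wildtype and 13, 14 and 11 in mutants, or 2.81, 3.51 and 1.84 CPM against 1.10, 1.43 and 1.03 CPM. The mutants lay below the wildtype in all libraries, and this was the one tested claudin past an absolute log2 fold change of 1 (-1.19, SE 0.33, 95% interval -1.90 to -0.488, edgeR adjusted p = 0.0267). Leaving out any 1 library except wildtype replicate 3 ended the call (adjusted p of 0.0518 to 0.128), as did other tools, DESeq2 (0.0936) and limma-voom (0.0571).

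The claudin-15 rows did not pass, and their fold changes differed in sign. The cldn15a row, for the pore-forming claudin needed to open a single gut lumen in zebrafish, had 5.03, 6.14 and 5.43 CPM in wildtype and 3.88, 3.69 and 3.93 CPM in mutants (log2 fold change -0.53, SE 0.19, edgeR adjusted p = 0.0747). Its groups did not overlap. The cldn15a expected counts were not whole in wildtype replicates 2 and 3 (63.31 and 58.73), and no partner row was searched for. The cldn15la row, for a claudin used as a marker of the gut lining, had 5.62, 5.46 and 3.41 CPM in wildtype and 2.95, 2.35 and 4.39 CPM in mutants (-0.56, SE 0.26, adjusted p = 0.180), and its groups overlapped. The cldn15b row stood at 0.11 on the same scale (SE 0.17, adjusted p = 0.748), with overlap.

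Further gut and liver claudins had few reads. The cldn15lb row, for a claudin of the bile duct network in the zebrafish liver, had 9, 5 and 12 counts in wildtype and 12, 11 and 5 in mutants (log2 fold change -0.019, 95% interval -1.03 to 0.99). The cldn2 row, for a cation and water pore in mammals, had 14, 11 and 7 counts in wildtype and 7, 5 and 12 in mutants (-0.55, SE 0.48, adjusted p = 0.520). Leaving out 1 library in turn, the cldn2 value ran from -0.20 without wildtype replicate 1 to -0.97 without mutant replicate 3. At these counts the intervals span a halving and, for cldn15lb, nearly a doubling.

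Gut and liver markers were lower in mutants more often than higher. These markers were picked with earlier results of these data known, so their share of calls is a description and no test. Of 11 tested of 12, 5 fell and 0 rose with edgeR, DESeq2 and limma-voom alike (0 higher also at an unadjusted edgeR p under 0.05), against 5.87% of all genes called lower by edgeR, and the list's median log2 fold change was -0.35. The fatty acid binding protein gene fabp2 (-0.50, edgeR adjusted p = 6.57e-05), the apolipoprotein gene apoa4b.1 (-0.38, adjusted p = 0.000164), the transferrin gene tfa (-0.35, adjusted p = 0.00183), fabp1b.1 (-0.27, adjusted p = 0.00909) and the retinol binding protein gene rbp2a (-1.24, adjusted p = 0.000973) made up the 5. The summed level of the whole list ran from 3618 to 3860.2 CPM in wildtype and from 2835 to 3074 CPM in mutants, with 0 markers at 0. Most of that sum lay in the called genes tfa, apoa4b.1 and fabp1b.1 (wildtype means of 1256, 1033 and 722 CPM), so it largely restates their calls. The fabp1b.1 call ended without mutant replicate 1 (0.0655) or 2 (0.0934). The part of the gut and liver markers in the cldn7a, cldn15a and cldn15la values was not tested.

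The cldn10b row, for a claudin-10 gene, had 9, 10 and 14 counts in wildtype and 22, 20 and 20 in mutants. That is 1.05, 0.975 and 1.29 CPM against 1.85, 2.05 and 1.87 CPM. All mutant libraries lay above all wildtype libraries, but the row did not pass (log2 fold change 0.78, SE 0.33; adjusted p = 0.144 by edgeR). The cldn8 row, named cldn8.1 in RefSeq after a claudin of the mammalian kidney tubule, had 4.68 to 5.56 CPM in wildtype and 4.21 to 4.80 CPM in mutants (-0.23, adjusted p = 0.482). The groups overlapped.

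Neither claudin-11 row passed. The cldn11a row, for the claudin of mammalian myelin, had 19.5, 19.5 and 18.5 CPM in wildtype and 17.9, 16.9 and 17.2 CPM in mutants, without overlap (log2 fold change -0.14, 95% interval -0.353 to 0.068, edgeR adjusted p = 0.405). Its partner cldn11b had 14.7, 13.7 and 15.01 CPM in wildtype and 17.5, 15.8 and 14.7 CPM in mutants (0.14, adjusted p = 0.473). Of 8 tested of 11 glia markers, 1 was called higher (12.5%, against 11.7% of all genes called), the proteolipid gene plp1a (0.26, edgeR adjusted p = 0.044). Its groups overlapped, with mutant replicate 1 at 139 CPM and wildtype replicate 3 at 143 CPM. Its call ended without wildtype replicates 1 (0.117) or 2 (0.139) or mutant replicates 2 (0.211) or 3 (0.193). It also ended with limma-voom (0.0734) and without robust weights (0.0877). That list summed to 241 to 263 CPM in wildtype and 259 to 285 CPM in mutants, with 0 markers at 0. Of that sum plp1a held 129 ± 12.5 CPM in wildtype and 155 ± 13.9 CPM in mutants. The median log2 fold change of the list was -0.047, and olig2 was lower in every mutant library without passing (-0.20, edgeR adjusted p = 0.132).

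The glial claudin cldnk had 1.40 ± 0.743 CPM in wildtype and 1.39 ± 0.504 CPM in mutants (SD, n = 3 each; log2 fold change 0.025, edgeR adjusted p = 0.981). It shared reads in the 3 mutant libraries with btr02, a bloodthirsty-related gene and the next gene to it in RefSeq. The btr02 row rose from 4.66 ± 0.408 to 7.67 ± 0.625 CPM (0.72, adjusted p = 0.00858). Added together, both rows were also higher in mutants (0.60, adjusted p = 0.0255). Most reads of that sum lay in the btr02 row, so the sum says little of cldnk alone.

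**Figure D3:**
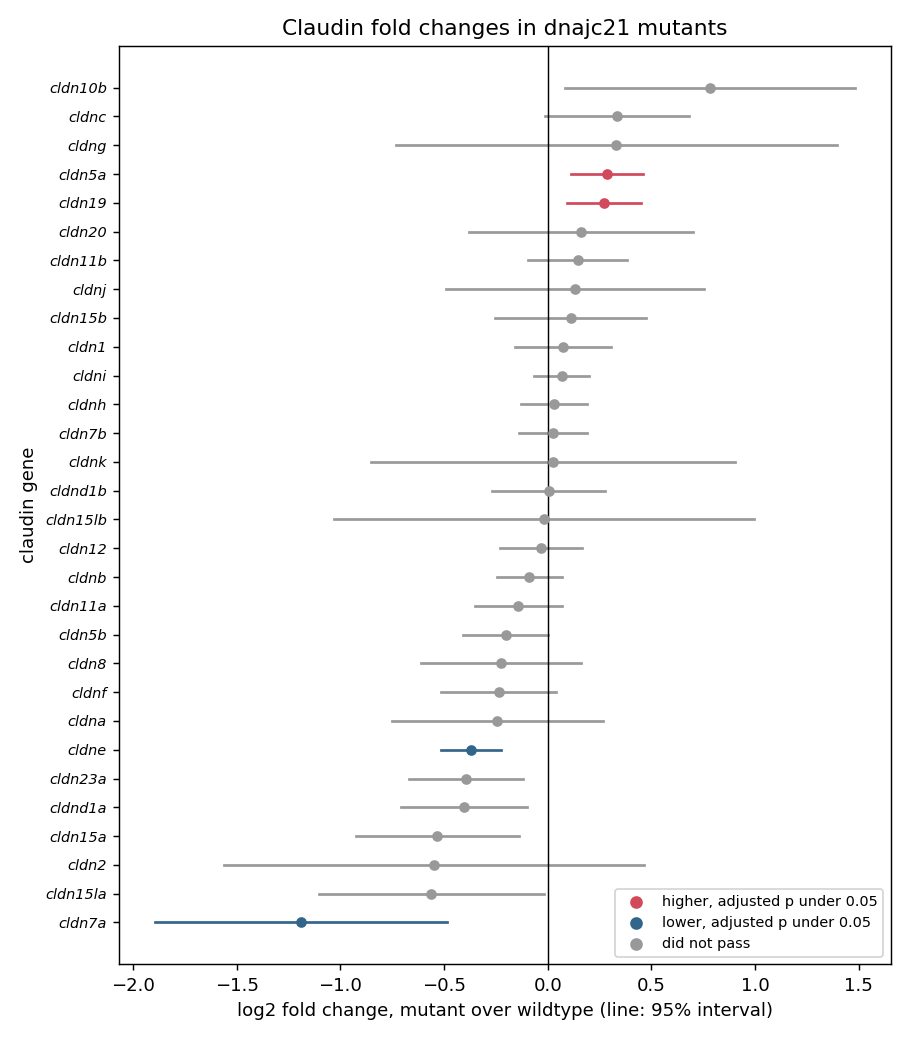
Log2 fold changes, mutant over wildtype, of the 30 tested claudins, in order of size, with their 95% intervals as lines. Coloured genes passed an adjusted p under 0.05, and the intervals widen among genes with few reads, such as cldn15lb and cldng.

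Further claudins with middling read numbers did not pass. The cldn23a row, named cldn23.1 in RefSeq, had 12.1, 11.7 and 13.9 CPM in wildtype and 8.68, 10.24 and 9.91 CPM in mutants, with all mutants below (log2 fold change -0.39, SE 0.13; adjusted p = 0.0598 by edgeR). The claudin domain gene cldnd1a had 14.4, 10.9 and 14.1 CPM in wildtype and 9.01, 11.7 and 9.16 CPM in mutants, with overlap (-0.40, SE 0.14, adjusted p = 0.0812). It passed without wildtype replicate 2 (-0.52, adjusted p = 0.0278).

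The remaining tested rows had fold changes above zero that did not pass. They are cldnc (0.34, edgeR adjusted p = 0.215), named cldn3d in RefSeq, cldng (0.33, adjusted p = 0.739), cldn20 (0.16, adjusted p = 0.752) and cldnd1b (0.0037, adjusted p = 0.992), each a log2 fold change. Of these, cldnc reached 5.62, 8.68 and 6.63 CPM in wildtype and 8.17, 8.91 and 9.54 CPM in mutants. The cldng row had 2 counts in wildtype replicate 2 against 10 and 14 in the other wildtype libraries. In all, 10 of the 30 had an unadjusted p under 0.05, against 25.5% of all genes.

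The 7 rows that were not tested hold 5 to 28.6 counts over all 6 libraries. They are cldn34a, cldnd, cldn23b, cldn17, cldn10l2, cldn18 and cldn10a. Where a library has 0 counts, as many as 3 cannot be told from none, which is 0.254 CPM in the deepest and 0.349 CPM in the shallowest library and covers counting error only. In wildtype, cldn10l2 had 0 counts in replicate 3, cldn18 in replicate 2 and cldn10a in replicate 1. The cldnd row had 3, 5 and 1 counts and cldn17 3, 2 and 1, so reads were present in each wildtype library. The wildtype means of cldnd, cldn23b, cldn17, cldn10l2, cldn18 and cldn10a ran from 0.096 to 0.310 CPM. The range above is for 1 library and is no limit for these means. The cldn23b row had 3, 2 and 3 counts in wildtype and 3, 7 and 9 in mutants, which overlap. The cldn34a row, at 0.394 ± 0.139 CPM in wildtype and 0.526 ± 0.030 CPM in mutants, split its reads with the row FP236735.1.

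Intervals were wider for claudins with fewer reads. For the 16 claudins with a wildtype mean of at least 10 CPM the 95% interval reached a median of 0.20 to either side of the log2 fold change, and for the 14 tested claudins below that 0.58. Over all 37 rows, the summed claudin level was 719, 754 and 739.8 CPM in wildtype and 718, 719 and 748 CPM in mutants, means of 738 ± 17.7 and 728 ± 17.1 (SD, n = 3 each), and the groups overlapped.

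In 5 pairs of claudins that share a number and carry the letters a and b, counts were compared within a library. Their ratio there does not depend on the scaling. The pairs were chosen after the data were seen. Left out were cldn15la and cldn15lb, cldn10a and cldn10b, and cldn23a and cldn23b, so the 5 are not all such pairs. The log2 ratio of cldn5a to cldn5b was 0.556, 0.708 and 0.796 in wildtype and 1.35, 1.00 and 1.18 in mutants. That of cldn15a to cldn15b was 0.034, -0.082 and -0.031 in wildtype and -0.606, -0.807 and -0.630 in mutants. The first ratio was higher and the second lower in every mutant library.

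The log2 ratio of cldn7a to cldn7b was -4.44 ± 0.540 in wildtype and -5.63 ± 0.311 in mutants, and that of cldn11a to cldn11b 0.404 ± 0.101 and 0.121 ± 0.099 (SD, n = 3 each). Both were lower in every mutant library. The groups overlapped for cldnd1a to cldnd1b, at -0.028 ± 0.414 and -0.454 ± 0.222, and that difference of -0.426 was -0.211 without wildtype replicate 1. An exact two-sided permutation test gave p = 0.1 for each of the first 4 ratios, the smallest that 3 against 3 allows, and 0.2 for the last, or 0.125 and 0.2 adjusted by Benjamini-Hochberg over the 5 ratios. The design could not reach 0.05 here. No share of ratios without overlap was computed over other gene pairs. The rows of cldn5a, cldn5b, cldn7a, cldn11a and cldn15a were each without overlap on their own, so these ratios partly restate them.

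**Figure D4:**
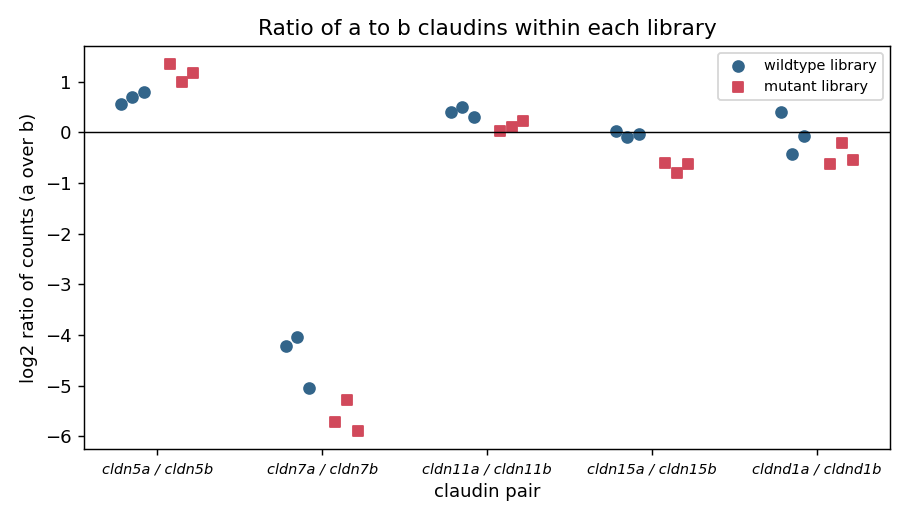
Log2 ratio of counts of the a to the b claudin of 5 pairs in each library; circles are wildtype and squares mutant libraries. The groups are apart in the cldn5, cldn7, cldn11 and cldn15 pairs and overlap in the cldnd1 pair. The pairs were chosen after the data were seen, and no share over other gene pairs was computed.

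Of 48 listed tight junction partners 43 were in the table and 41 were tested, and 2 were higher and 1 lower. That is 7.32%, against 11.7% of all genes called. The scaffold gene magi1a had 104, 89.7 and 91.1 CPM in wildtype and 109, 118 and 124 CPM in mutants (log2 fold change 0.30, edgeR adjusted p = 0.0151). The polarity gene pard6a was higher (0.38, adjusted p = 0.0409), and ildr1a, for an angulin-type protein of tricellular junctions, was lower (-0.40, adjusted p = 0.0355). The median log2 fold change of the list was 0.070.

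These 3 calls changed with the libraries used. Leaving out wildtype replicate 1 gave 4 calls. Leaving out wildtype replicate 2 or 3 or mutant replicate 1 or 3 gave 1 call. Leaving out mutant replicate 2 gave 0 calls. The 3 fold changes kept their sign in these fits. Calls over all genes also fell without 1 mutant library, from 2372 to between 1242 and 1454. The magi1a call was lost without wildtype replicates 2 (0.0517) or 3 (0.0614) or mutant replicates 2 (0.0852) or 3 (0.113). It held with DESeq2 (0.0127) and limma-voom (0.0295). That of pard6a was lost without wildtype replicates 1 (0.0837) or 2 (0.101) or mutant replicates 1 (0.172) or 2 (0.167). The ildr1a call was lost on leaving out any 1 library except wildtype replicate 2 (0.0509 to 0.158). DESeq2 also lost the ildr1a (0.154) and pard6a (0.144) calls, and pard6a was lost with limma-voom (0.062) and without robust weights (0.0521).

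Of 17 listed genes known to control or stabilise claudins in fish or mammals, 15 were tested. Of these 1 was higher and 1 lower, or 13.3% against 11.7% of all genes called, a share near the background. The kinase gene wnk4b, whose mammalian counterpart phosphorylates claudins and regulates salt transport, had 9.01, 7.70 and 9.58 CPM in wildtype and 14.2, 13.8 and 12.8 CPM in mutants. It rose (log2 fold change 0.63, edgeR adjusted p = 0.00355), and the call held without any 1 library. The grainyhead-like factor gene grhl1 had 23.8, 24.1 and 22.8 CPM in wildtype and 17.9, 19.3 and 19.7 CPM in mutants. It was lower (-0.31, adjusted p = 0.0417), but the call ended without any 1 library (0.0603 to 0.186), with DESeq2 (0.19) and with the replicate number as a block (0.0528). The median log2 fold change of the list was -0.13.

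In the ionocyte and the ear list 8.33% of the tested markers were called, against 11.7% of all genes. Of 12 tested of 13 ionocyte markers 1 rose, the sodium pump subunit gene atp1a1a.2 (log2 fold change 0.25, edgeR adjusted p = 0.0138), whose call ended without mutant replicate 2 (0.0662) or 3 (0.0946). Of 12 ear and lateral line markers 1 was lower, pax2a, which the pronephros list also holds.

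**Figure D5:**
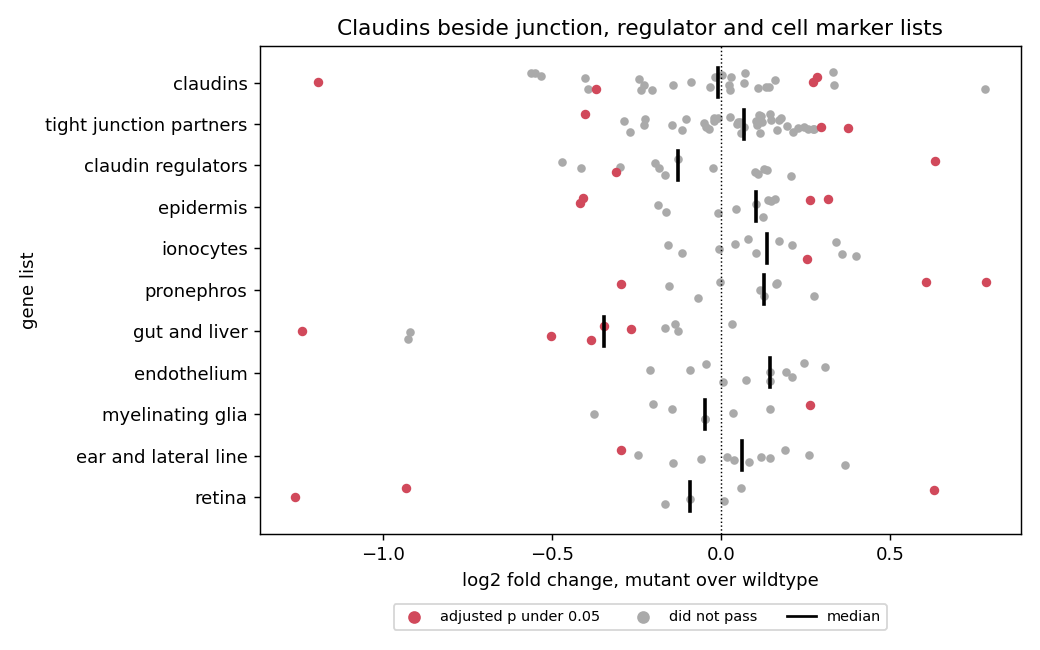
Log2 fold changes, mutant over wildtype, of the tested claudins and of the tested genes in each list, 1 point a gene with vertical jitter, coloured where adjusted p was under 0.05; the black bar is the list's median. The gut and liver list has its median at -0.35, and the claudin median lies at -0.0075.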

How the data were processed

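The submitters' processing notes name STAR, RSEM, DESeq2 and the build danRer11; the annotation, versions and strand setting are not given in the sources used here, so overlapping and antisense genes are uncertain. The table the authors deposited holds RSEM expected counts for each gene row, with no scaling between libraries. Columns were assigned by the name and replicate number in the header. The casper columns, the only ones not named as mutant, were taken as the wildtype samples. Expected counts were rounded and fitted in R 4.3.3 with edgeR 4.0.16 (filterByExpr with minimum count 10, TMM, robust quasi-likelihood test, Benjamini-Hochberg over 20229 genes, threshold 0.05). SE was taken as the size of the log2 fold change over the root of F. Alternatives included DESeq2 1.42.0 and limma 3.58.1 voom. The fit was tested on simulated data with the same dispersion for all genes. Its smallest planted change was larger than the cldne, cldn5a and cldn19 fold changes, so it says nothing of changes that small. Claudin rows not whole in at least 3 libraries were searched for partner rows with whole sums. The rows of cldn15a, cldnj and cldn18, not whole in fewer libraries, were not searched. RefSeq names (36 of 37 rows matched, 5 by synonym) and gene order, by chromosome and start coordinate, come from assembly GRCz12tu. No sequences were used. Levels per transcript length, planned at first, were not computed. Members and lists were chosen with earlier results of these data known, so the share of a list called is a description and no test. Described are the called claudins, the 10 with most reads and those past an absolute log2 fold change of 0.5, with the remaining rows accounted for, and up to 6 called genes of each list; coro1a and btr02 were named after their values were seen. Python 3.11.15 with matplotlib 3.10.9 drew the figures.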

Additional observations from a re-analysis of the deposited data

How the results depend on the processing

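The number of claudins called, 4, was the same with RLE size factors, upper quartile factors, other low-count filters, no robust weights and the replicate block. It was 5 with rows that share reads summed. The added call was cldnk summed with btr02 (edgeR adjusted p = 0.0255), where most reads lay in btr02, and cldnk alone did not pass (0.981). The number was 1 with DESeq2 and 1 with limma-voom, which called 1507 and 2065 genes in all against 2372. Leaving out 1 library gave 1 to 3 claudins and 1242 to 2658 genes in all. Calls of tight junction partners, 3, fell to 1 with DESeq2 and ranged from 0 to 4 without 1 library. The 0 came from edgeR without mutant replicate 2, where 6 partners had an unadjusted p under 0.05. The share of all genes under 0.05 was not computed for that fit. In the full edgeR fit 8 of 41 tested partners were under it, against 25.5% of all genes. Calls of claudin regulators, 2, were 1 with DESeq2 and 1 with the replicate block, and 1 without any 1 library. The fits covered 18 claudins under 15 alternatives each, 270 values, of which 247 stayed on their side of the threshold, 21 lost and 2 gained a call, and 0 called values changed sign. Most of the 18 had not passed at first and could not lose a call. All 21 losses were of cldn5a, cldn19 and cldn7a, and cldne lost none. Same-numbered libraries did not deviate together (correlations -0.050, -0.0025 and 0.022). With 3 libraries a group this check cannot exclude that they were paired. With the replicate block 2470 genes were called. The summed claudin level and the share of the 5 leading rows moved by less than 1 SD. The a to b pairs were chosen after seeing the data. Their mutant minus wildtype differences in log2 ratio kept their sign without any 1 library. Levels per length were not run.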

Other observations

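RefSeq gives claudin names to 5 rows that the table lists under clone-type names, and these were left out of the counts above. The zgc:110333 row, RefSeq cldn8.2, had 12.2, 15.01 and 14.1 CPM in wildtype and 10.6, 11.5 and 11.1 CPM in mutants. Each mutant library lay below the wildtype range, but the row did not pass (log2 fold change -0.32, SE 0.12; adjusted p = 0.103 by edgeR). The zgc:136892 row, RefSeq cldn30, had 5.62, 6.04 and 6.91 CPM in wildtype and 5.05, 4.50 and 5.33 CPM in mutants, also without overlap (-0.32, SE 0.18, adjusted p = 0.269). The rows of cldn29 (zgc:112437, 0.22, adjusted p = 0.685) and cldn26 (si:dkey-98f17.3, 0.0072, adjusted p = 0.994) did not pass either, and that of cldn33b (zgc:153311) had too few counts to be tested, 3, 4 and 5 in wildtype and 2, 7 and 3 in mutants. In RefSeq gene order, cldn30 and cldn29 stand in 1 run with cldnb, cldnc, cldnd and cldnh.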
